A study of Mus musculus with 8 samples.

Results

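The Fos and Jun family genes are 7 listed genes, Fos, Fosb, Fosl1, Fosl2, Jun, Junb and Jund, out of 26024 mouse genes for which CpG methylation could be summed. They were taken by name, as members of a gene family. A cytosine was used when it lay inside the gene's span or within 5 kb of it, on mm10, and had at least 10 reads in all 8 libraries. That left 1080 cytosines at 867 CpGs, of 1510385 such cytosines in the genome, and they fell into 65 of 259049 runs, a run being neighbouring CpGs with gaps of at most 100 bp. The libraries were reduced representation bisulfite sequencing (RRBS) libraries, in which unmethylated cytosines are converted and read as T and mostly CpG-rich fragments are sequenced. All 8 came from brain tissue labelled the dDG DGC layer, from male mice of the C57 BL/6 genotype with no transgene named in the labels. In the cocaine group 4 mice self-administered cocaine, and the 4 mice of the saline group are labelled self-administration saline. The labels used here do not state age, dose, session number or the time from the last session to tissue collection. The tissue was dissected and not sorted, so each level averages over whatever cells the piece held, and a change in the share of a cell type cannot be told apart from a change within cells.

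Fos and Jun proteins are basic leucine zipper transcription factors that pair to form AP-1, and their genes are classic immediate early genes, switched on quickly in neurons by synaptic activity. Jun proteins can pair with each other or with a Fos protein, whereas Fos proteins need a Jun-type partner. A stable splice form of the Fosb product, ΔFosB, is known to build up in neurons with repeated cocaine. Promoters in CpG-dense DNA are usually unmethylated in brain, and methylation is more often found in gene bodies and flanks.

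The promoters are shown first because the lowest values of the family sit there. The sequences are RefSeq, GRCm38.p6, and each is the 250 bases before the gene start, written 5′ to 3′ on the gene's strand. Capitals mark the CpGs that were read in all 8 libraries. Promoters of 6 of the 7 genes were found in the RefSeq table. No CpG of the Jun stretch (0 of 15) or of the Jund stretch (0 of 3) was read in all 8 libraries, so 4 are printed. The Jund stretch, with 3 CpGs, is not CpG-dense, unlike the other 5 with 15 to 23. The Fos stretch is chr12:85473640-85473889 on the plus strand, Fosb chr7:19310046-19310295 on the minus strand, Fosl2 chr5:32136222-32136471 on the plus strand and Junb chr8:84978749-84978998 on the minus strand.
Fos: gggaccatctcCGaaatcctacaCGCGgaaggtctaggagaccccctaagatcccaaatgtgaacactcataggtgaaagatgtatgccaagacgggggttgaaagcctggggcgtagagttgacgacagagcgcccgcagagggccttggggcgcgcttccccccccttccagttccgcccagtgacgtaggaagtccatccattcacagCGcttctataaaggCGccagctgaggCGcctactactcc
Fosb: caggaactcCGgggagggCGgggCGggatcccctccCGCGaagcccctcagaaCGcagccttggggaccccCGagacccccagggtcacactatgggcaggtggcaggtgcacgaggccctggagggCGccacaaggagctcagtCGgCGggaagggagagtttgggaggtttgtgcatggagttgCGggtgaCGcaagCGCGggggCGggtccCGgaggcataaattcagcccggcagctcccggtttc
Fosl2: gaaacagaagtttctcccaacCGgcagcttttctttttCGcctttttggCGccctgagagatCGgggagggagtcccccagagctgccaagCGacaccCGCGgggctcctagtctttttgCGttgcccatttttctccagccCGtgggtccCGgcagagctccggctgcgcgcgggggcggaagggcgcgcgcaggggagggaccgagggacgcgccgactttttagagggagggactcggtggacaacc
Junb: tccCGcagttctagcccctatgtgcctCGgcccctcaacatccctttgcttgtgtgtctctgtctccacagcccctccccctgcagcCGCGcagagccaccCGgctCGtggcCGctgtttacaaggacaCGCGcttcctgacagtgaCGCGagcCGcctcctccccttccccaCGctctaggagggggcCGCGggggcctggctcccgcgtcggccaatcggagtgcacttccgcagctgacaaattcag
In these stretches 6 of 15 CpGs were read in all 8 libraries at Fos, 16 of 19 at Fosb, 10 of 23 at Fosl2 and 15 of 20 at Junb. In the Fos stretch 0 of 1061 observations were methylated, an observation being 1 read at 1 CpG, which allows a level of up to 0.283%. Fosb had 23 methylated of 12709 observations (0.181%), Fosl2 had 8 of 13189 (0.0607%) and Junb had 17 of 6471 (0.263%). No single marked CpG exceeded 0.667% over the 8 libraries. A read covers several CpGs and carries no molecular identifier, so these limits and shares cover counting error only and overstate the number of independent molecules.

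Cyclic AMP response elements are the sites through which CREB drives Fos. The core of that element, TGACG on either strand, which is also part of the full palindrome TGACGTCA, occurred 129 and 66 bases before the Fos start, 60 before the Fosb start and 106 before the Junb start. The CpG of the Fosb match was methylated in 0 of 679 reads, which came from all 8 libraries, and that of the Junb match in 1 of 302. Neither CpG of the Fos matches was read in all 8 libraries. TGACG was present in 20.8% of 32851 RefSeq promoters of 300 bases. The full palindrome (1.79% of promoters), the AP-1 element TGACTCA (5.20%) and the CArG box, the core of serum response elements (1.63%), had no match in the 300-base promoters of the 6 genes with a sequence. These run from 250 bases before the start to 50 after it, and sites farther out, at Fos or the others, were not searched.

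Each library listed 1844706 to 2236384 cytosines at a median of 34 to 66 reads, and 48.7% of the cytosines seen in any library were shared by all 8. At the 7 genes, 1545 cytosines were seen in any library and 218 in 1 only. Saline 1 stood apart at cytosines of intermediate level (20% to 80% over all libraries): 11.1% of them were read as wholly methylated or wholly unmethylated there, against 0.168% to 3.67% in the others. At the 89 such cytosines of the Fos and Jun genes the share was 6.74% in saline 1 and 0% to 3.37% in the others. Cocaine 3 had the fewest reads and the lowest mean at those cytosines, 50.4% over the genome against 52.1% to 56.4% elsewhere, and 43.3% against 47.0% to 53.1% at the Fos and Jun genes. Both CpG strands were read at 213 CpGs of the family, where the strands differed by a median of 0 points and by over 20 points in 39 of 1704 values. Granule cell markers (7 start windows) read 1.29% ± 0.292 in cocaine and 1.11% ± 0.167 in saline mice (SD, n = 4 each, also below), within 1 kb of the start. Astrocyte markers (5 start windows) read 21.7% ± 3.86 and 22.3% ± 0.920, and oligodendrocyte lineage markers (3) read 22.7% ± 3.44 and 22.7% ± 1.93. Of these windows, 2 of 5 astrocyte and 2 of 3 oligodendrocyte lineage starts were under 5%, so the remaining starts carry those means. Start windows of CA pyramidal cell, interneuron, and endothelial and mural markers were also low. Over the 8 libraries they ranged over 1.07% to 1.98%, 0.694% to 2.54% and 0.542% to 2.86%. Low start levels therefore do not single out granule cells. RNA was not measured, so the tissue label could not be checked against marker expression.

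Methylation was low over most of what was measured at the family. Of the 1080 cytosines, 933 (86.4%) had a level under 5% over all libraries, against 47.1% of all shared cytosines, and 69 were over 50%. Of 53 runs with at least 3 CpGs, 38 (71.7%) were under 5%, against 21.8% of 125876 such runs in the genome, and 0 were over 95%, against 4.73%. Summed over the gene and 5 kb either side, the order of the levels over 8 libraries was Fosl1 at 1.30% ± 0.335 (SD, n = 8, also for the others), Jun at 2.41% ± 0.442, Junb at 2.69% ± 0.368, Fosb at 2.85% ± 0.559, Jund at 8.76% ± 2.30, Fos at 9.10% ± 2.05 and Fosl2 at 13.9% ± 1.00. Jun, Junb and Fosb overlapped in their ranges, as did Jund and Fos. Fosl2, which encodes FRA2, was above Fos in every library, with 12.6% as its lowest and 11.8% as the highest Fos value. The median of all genes was 27.7%, and the 7 genes stood at the 6.58 to 32.9 percentile of all gene windows.

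**Figure D1:**
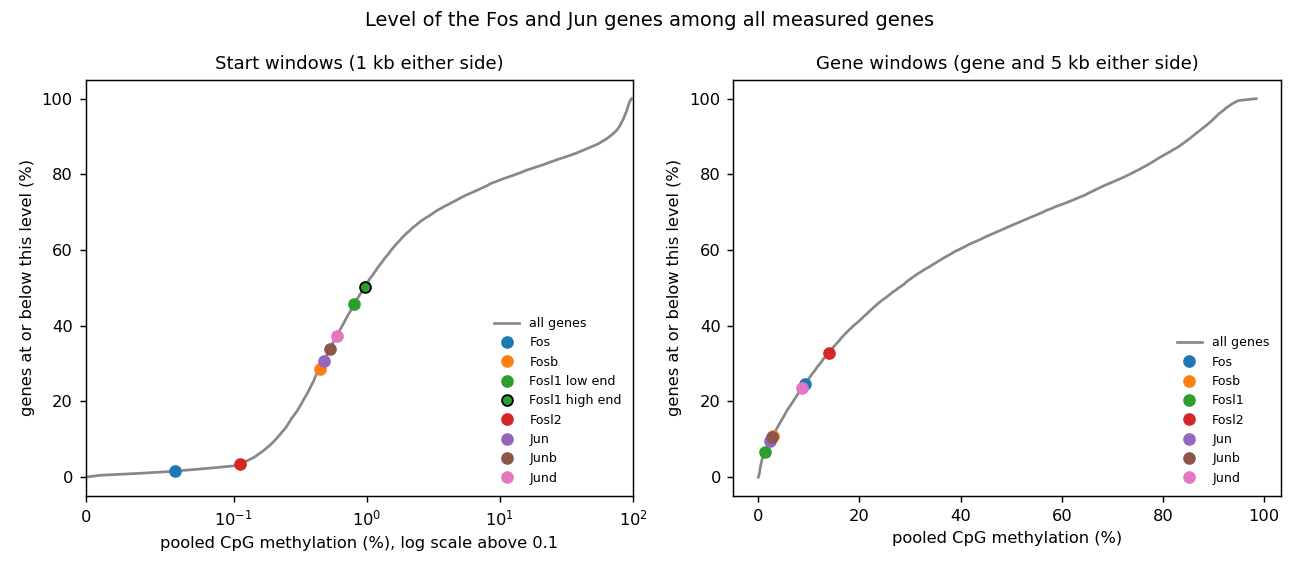
Level of the Fos and Jun genes over all 8 libraries among all measured genes, within 1 kb of the start (left, a log scale above 0.1%) and over the gene with 5 kb either side (right). The grey line gives the percent of genes at or below each level. Fos lies at 0.0606% at its start and 9.20% over its window, and Fosl2 at 0.111% and 13.9%.

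Nearly all of the methylation lay away from the gene starts. Over the 6 genes whose start and strand are known, with genes weighted equally, cytosines within 0.5 kb of the start read 0.293% ± 0.125 over the 8 libraries (5 genes with a measured cytosine). From 1 to 2 kb into the gene the level was 4.51% ± 1.75, and beyond 2 kb, to 5 kb past the gene's end, it was 35.1% ± 2.07. Fos alone, at 20.7%, carries most of the 1 to 2 kb mean, since Fosb, Jun, Junb and Jund read 0.211% to 0.850% there. Beyond 2 kb the genes differed widely, from 0.462% in Junb and 0.997% in Jund through 9.97% in Fosb to 52.9% in Fosl2, 53.9% in Fos and 92.6% in Jun. Upstream it was 7.02% ± 2.65 from 2 to 0.5 kb before the start, where a single Fosb cytosine at 33.7% carries most of the mean, and 35.6% ± 1.30 from 5 to 2 kb before it. Only 3 genes were measured in that farther stretch, and they differed widely: Fosl2 at 1.71%, Jund at 47.5% and Junb at 57.4%. Fosl1, for which the strand is not given in the table used, is left out of these means.

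**Figure D2:**
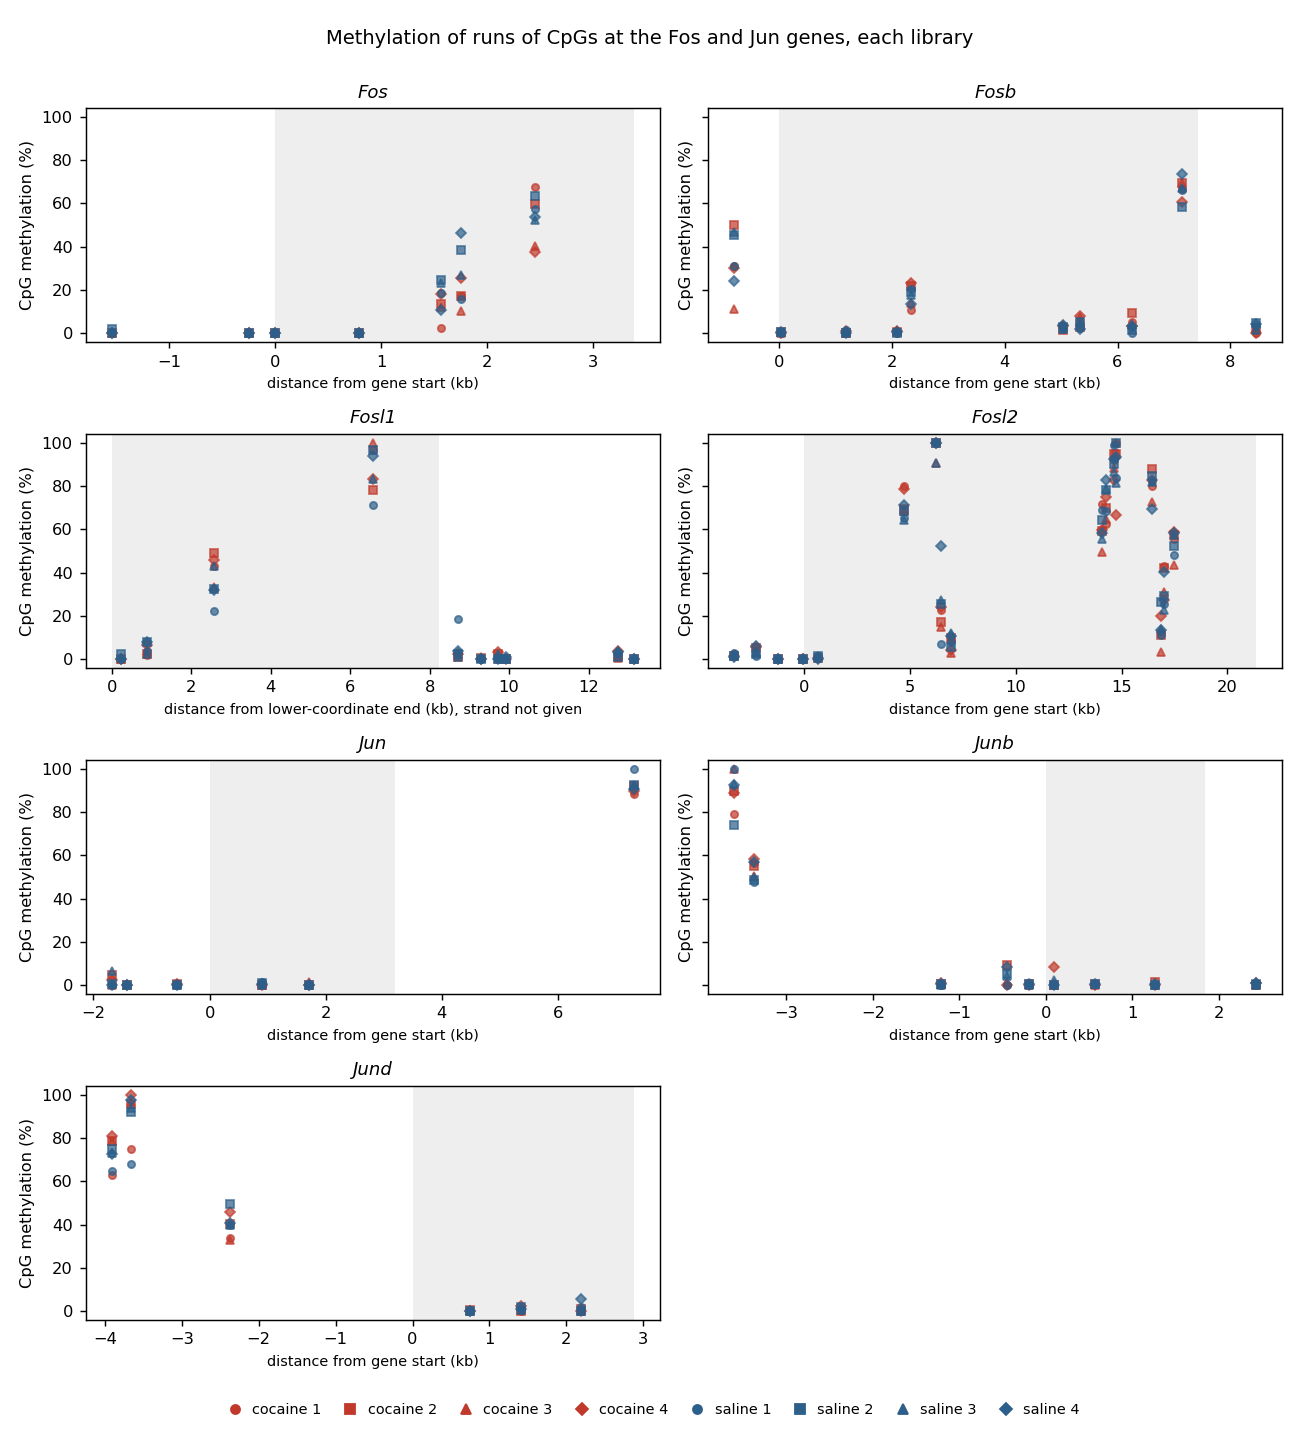
CpG methylation (%) of every run of CpGs in each library against the middle of the run, in kb from the gene start, or from the lower-coordinate end for Fosl1. Grey marks the gene. Points nearest each start lie under 10% except beyond the far end of Fosl1 in saline 1 (18.75%), and levels reach over 50% at least 2 kb away in Fos, Fosb, Fosl2, Jun, Junb and Jund.

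The first question the design poses is whether the starts of these genes differed between cocaine and saline mice. All 8 start windows of the family, 1 kb either side of the start or of both ends for Fosl1, were under 1% over all libraries, from 0.0606% at Fos to 0.967% at the higher-coordinate end of Fosl1. They were therefore below the 5% minimum of the test and are given as values. Under 5% is usual for a start: 73.7% of 17663 gene starts were there, with a median of 0.956%. Of 4568 starts that could be tested, 0 (0%) were called at an adjusted p under 0.05 and 5 points. The smallest adjusted p was 0.251 in a quasi-binomial F test with dispersion moderated by limma. At an unadjusted p under 0.05 there were 267 (5.85%), and limma on logit levels also called 0.

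At Fos, the prototype immediate early gene, the run over the start (chr12:85473852-85473932, 7 CpGs from 38 bases before to 42 after the start) had no methylated read in any library. The 8 libraries gave 70 to 207 observations each, which allow levels of up to 4.29% in saline 1 and up to 1.45% in saline 2. Pooled, 0 of 1086 observations allow up to 0.276%. As in the promoter stretches, a read is counted once at each CpG it covers. These limits, and those given for the other starts below, are therefore too narrow when counted by molecule. The next run upstream, 4 CpGs at -272 to -225 bases from the start, was also at 0 in all 8. From 638 to 939 bases into the gene, 18 CpGs read between 0% and 0.199% in every library.

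At Fosb the run over the start (chr7:19309570-19310450, 62 CpGs) read 0.0890%, 0.532%, 0.0981% and 0.105% in cocaine 1 to 4. In saline 1 to 4 it read 0.101%, 0.351%, 0.750% and 0.463%. Cocaine 2 lay among the saline values and saline 1 among the cocaine values, so the groups overlapped at 0.206% ± 0.218 and 0.416% ± 0.269. The Fosl2 run over the start (chr5:32136243-32136579, 22 CpGs) read 0.140%, 0.0339%, 0% and 0.120% in cocaine 1 to 4 and 0.0275%, 0%, 0.0315% and 0% in saline 1 to 4. These are 0 to 3 methylated observations of 2143 to 3633 in each library, and a count of 0 there allows up to 0.122%.

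Fosl1, which encodes FRA1, was measured at both ends. The run nearest its lower-coordinate end (chr19:5447753-5448138, 29 CpGs) read 0%, 0.281%, 0% and 0% in cocaine 1 to 4 and 0%, 2.48%, 0.343% and 0.142% in saline 1 to 4. A level of 0 there allows up to 0.185% in the shallowest library. Just beyond the other end, inside the overlapping gene Ccdc85b, 4 CpGs (chr19:5456370-5456461) read 2.84%, 1.16%, 1.86% and 2.27% in cocaine mice and 18.75%, 2.27%, 1.19% and 3.64% in saline mice. Saline 1 was the only library above 4% and the groups otherwise overlapped.

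At the Jun genes, the Jun run nearest the start (chr4:95052558-95053021, 39 CpGs, -799 to -336 bases from the start and inside the noncoding gene Junos) read 0.0228%, 0.387%, 0.380% and 0.415% in cocaine 1 to 4. In saline 1 to 4 it read 0.294%, 0.198%, 0.0895% and 0.236%, inside the range of the cocaine mice. Junb, 8 CpGs at 57 to 137 bases into the gene (chr8:84978611-84978691), read 0% in 6 libraries, 8.33% in cocaine 4 and 2.19% in saline 3. The 6 libraries at 0 allow up to 1.51%. Jund, 9 CpGs at 704 to 789 bases into the gene (chr8:70698443-70698528), read 0% in 6 libraries, 0.598% in cocaine 2 and 0.263% in saline 2, and a count of 0 allows up to 0.565%. The large run that follows in Jund (82 CpGs, 967 to 1847 bases from the start) spanned 0.174% to 2.20% in the cocaine and 0.557% to 1.83% in the saline group.

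Averaged over the 6 starts of known strand, the level was 0.194%, 0.359%, 0.139% and 0.394% in cocaine 1 to 4 and 0.405%, 0.427%, 0.560% and 0.428% in saline 1 to 4. All saline values were above all cocaine values, with cocaine 4 and saline 1 the closest pair, and no test was made over the members. This separation rests on 1 gene in saline 1. There the Jun start read 1.58%, and the other starts read 0.0687% (Jund) to 0.375% (Junb), each below the cocaine 4 mean. In cocaine 4 the Jun start read 0.382%, so without Jun saline 1 would lie below cocaine 4. Behind these means are 49 to 144 methylated observations per cocaine library and 123 to 193 per saline library, of 22194 to 36282. Over all 13011 starts under 5%, the means were 0.879% ± 0.193 in cocaine and 1.02% ± 0.121 in saline mice. Within each single gene the groups overlapped at every start. The 3.72% of tested starts whose groups did not overlap is no measure for these genes, since tested starts are those from 5% to 95%.

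Methylated reads at these low runs came partly in blocks. At the 946 cytosines of the family in runs under 5%, 3432 of 554600 observations were methylated. Of these, 31.1% sat in stretches of at least 3 neighbouring cytosines of 1 strand with the same methylated count, against 34.1% at all low runs in the genome, so the family was near the background. In the Junb run of cocaine 4, 2 of 24 reads were methylated at each of 8 cytosines. In Jun, saline 1 had 7 methylated of 17 reads at each of 11 minus-strand cytosines (chr4:95051507-95051606), and it read 1.56% over the Jun run that holds them (chr4:95050768-95051854), against 0.170% to 0.849% in the other 7 libraries. These 11 cytosines lie within 1 kb of the Jun start and so enter the mean over starts given above. The files do not link cytosines by read, so whether such equal counts come from the same reads was not tested.

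Next, the methylated parts of the genes were compared between the groups. Of the 53 runs with at least 3 CpGs, 15 had a level from 5% to 95% and entered the test with 92484 runs of the genome: 3 at Fos, 2 at Fosb, 6 at Fosl2, 1 at Jun, 1 at Junb and 2 at Jund. Fosl1 had none. No run of the 15 passed (adjusted p from 0.876 to 0.999 in the quasi-binomial F test with dispersion moderated by limma, used throughout), as 0 of 92484 (0%) did in the genome, where the smallest adjusted p was 0.249. At an unadjusted p under 0.05 there was 1 of 15, in Fos, against 5.65% of all runs, a share near this background. By limma on logit levels the family had 0 at that threshold and the genome 4630. In 9 of 15 runs the mean was lower in cocaine mice, as it was in 61.8% of all runs, with a median difference of -0.31 points against -1.06 points over all. The groups overlapped in all 15. Of all runs, 3.29% had groups that did not overlap, a share so small that 0 of 15 is near this background.

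**Figure D3:**
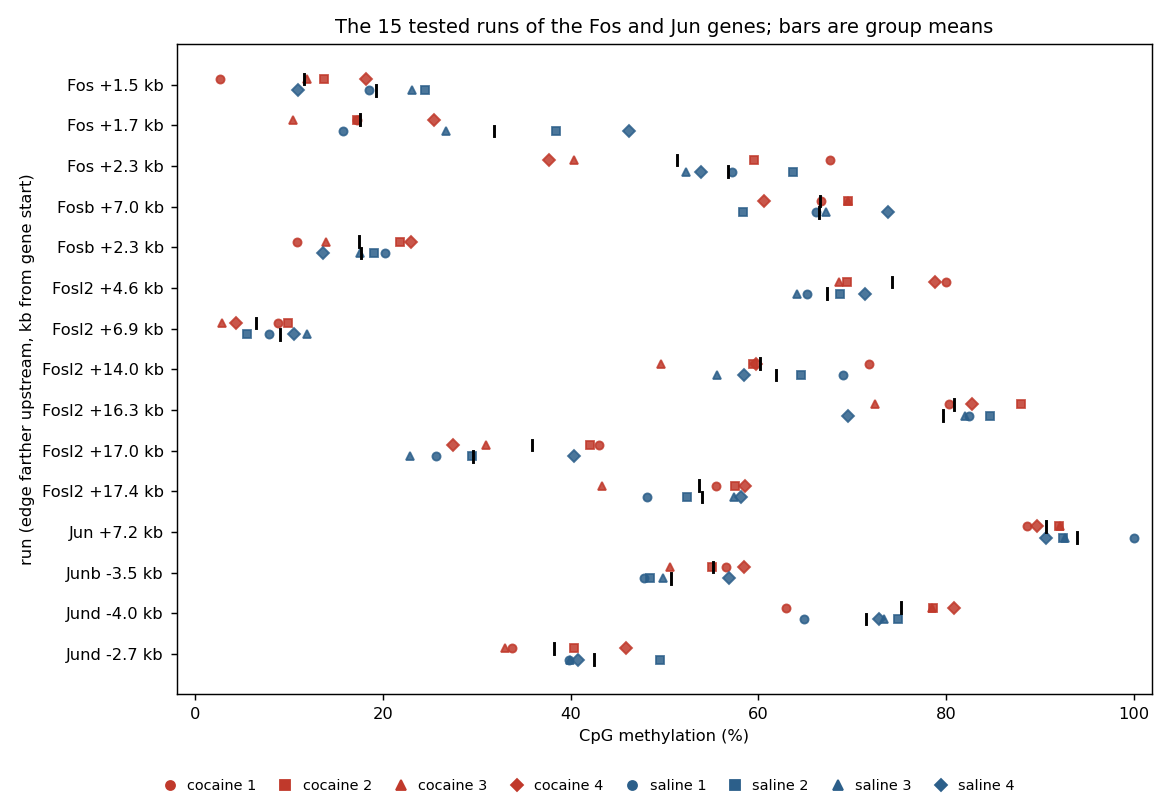
CpG methylation (%) of the 15 tested runs of the Fos and Jun genes. Each point is a library, cocaine in red above saline in blue, with a black bar at each group mean, and runs are named by gene and by their upstream edge in kb from the gene start. In every run the groups share part of their range, and the gap between means is widest at Fos +1.7 kb (17.6% and 31.8%).

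The Fos product, c-Fos, is widely used as a marker of recent neuronal activity. Its gene went from 0% at the start to group means over 50% at its farthest run. The 3 CpGs at 1512 to 1612 bases from the start (chr12:85475402-85475502) read 2.61%, 13.7%, 11.9% and 18.2% in cocaine 1 to 4 and 18.5%, 24.5%, 23.1% and 10.96% in saline 1 to 4. Cocaine 1 was lowest, saline 4 lay among the cocaine mice, and the means were 11.6% ± 6.56 and 19.3% ± 6.10 (adjusted p = 0.890).

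The next run, 4 CpGs at 1727 to 1772 bases (chr12:85475617-85475662), read 17.2%, 17.2%, 10.4% and 25.5% in cocaine 1 to 4, from 95 to 269 observations per library. In saline 1 to 4 it read 15.8%, 38.5%, 26.8% and 46.2%. Of the saline mice, 3 were above all cocaine mice and saline 1 was below 3 of the 4. The means were 17.6% ± 6.18 and 31.8% ± 13.3, a difference of -14.2 points with an unadjusted p of 0.0125 and an adjusted p of 0.876. Without saline 4 the difference was -9.44 points (unadjusted p of 0.0565), without saline 1 it was -19.6 points (0.00335), and without saline 1 and cocaine 3 it was -17.2 points (0.00894). The adjusted p was 0.741 to 0.970 over all settings of the quasi-binomial test and limma on logit levels. With the run's own dispersion the unadjusted p was 0.0542, and with limma on logit levels it was 0.0613.

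The third, 10 CpGs at 2310 to 2593 bases (chr12:85476200-85476483), read 67.6%, 59.6%, 40.4% and 37.7% in cocaine 1 to 4 and 57.2%, 63.7%, 52.3% and 53.9% in saline 1 to 4. Here the cocaine mice spread on both sides of the saline mice, at 51.3% ± 14.6 and 56.8% ± 5.02 (adjusted p = 0.969). Over the whole Fos window the level was 10.9%, 7.60%, 7.14% and 7.09% in cocaine mice and 11.03%, 11.8%, 10.04% and 7.15% in saline mice. Cocaine 1 lay with the saline mice and saline 4 with the cocaine mice, and the difference was -1.83 points (adjusted p = 0.902). It was -4.20 points without the flanks, -2.79 without saline 4 and -1.14 without saline 1 and cocaine 3, and it passed in none of these.

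**Figure D4:**
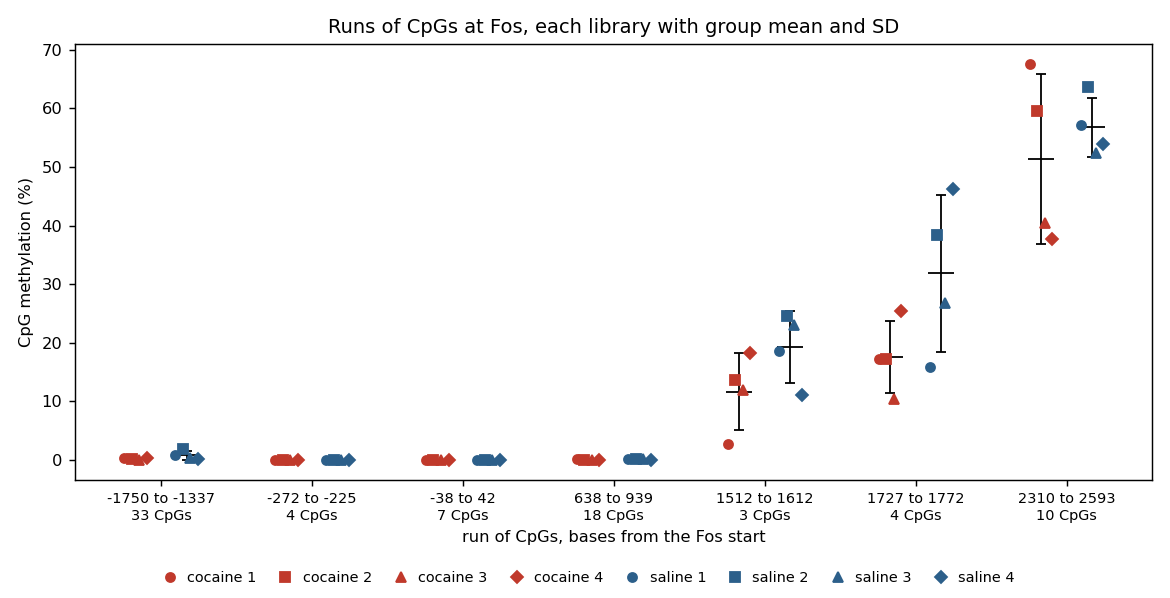
CpG methylation (%) of the 7 runs of CpGs at Fos, ordered by distance in bases from the gene start. Each point is a library, and black marks give the group mean and SD (n = 4 each). The 4 runs up to 939 bases from the start stay under 2% in all 8 libraries, and the 3 farther runs reach group means of 11.6% to 56.8% with overlapping groups.

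Fosb, the source of ΔFosB, was under 5% in 7 of its 9 runs with at least 3 CpGs. The intermediate run 2259 to 2428 bases into the gene (chr7:19307617-19307786, 6 CpGs) read 10.9%, 21.9%, 13.9% and 23.0% in cocaine 1 to 4 and 20.2%, 19.0%, 17.5% and 13.6% in saline 1 to 4. The saline range lay inside the cocaine range, and the means of 17.4% ± 5.95 and 17.6% ± 2.87 did not differ beyond the spread (adjusted p = 0.979). With gaps of at most 50 bp, and without some single libraries, the sign of that difference turned, to 2.48 points with the smaller gaps. Near the gene's far end, 5 CpGs at 7027 to 7261 bases read 66.6% ± 4.24 and 66.4% ± 6.33 (adjusted p = 0.999).

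Fosl2 held the most methylated DNA of the family, with 33 of its 155 cytosines over 50%. The run 4612 to 4811 bases into the gene (chr5:32141084-32141283, 6 CpGs) read 80%, 69.4%, 68.6% and 78.8% in cocaine 1 to 4 and 65.1%, 68.7%, 64.2% and 71.4% in saline 1 to 4. Cocaine 1 and cocaine 4 were above all saline mice and the others overlapped, at 74.2% ± 6.01 and 67.4% ± 3.33. The difference of 6.86 points had an unadjusted p of 0.0577 and an adjusted p of 0.876. Leaving out single libraries moved its unadjusted p both ways. It was under 0.05 without cocaine 2 (0.0355), cocaine 3 (0.0341) or saline 4 (0.0445), with adjusted p from 0.893 to 0.969. It rose to 0.160 without cocaine 1, 0.185 without cocaine 4 and 0.149 without saline 3. Without saline 1 it was 0.0875 and without saline 2 it was 0.0657.

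The other 5 tested Fosl2 runs went both ways. At 6859 to 7032 bases the means were 6.48% ± 3.42 and 8.98% ± 2.84, and at 16980 to 17049 bases 35.9% ± 7.84 and 29.6% ± 7.65. The runs at 14030, 16348 and 17355 bases differed by -1.76, 1.21 and -0.308 points. All 5 had an adjusted p of at least 0.908. Over its whole window Fosl2 read 13.3% ± 0.889 in cocaine and 14.5% ± 0.762 in saline mice, and the ranges overlapped through cocaine 1 at 14.6% and saline 1 at 13.6% (adjusted p = 0.920).

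Jun, the main partner of the Fos proteins, had 97.2% of its 181 cytosines under 5%. Its single tested run lay beyond the gene's far end, 7203 to 7412 bases from the start (chr4:95044810-95045019, 5 CpGs). It read 88.6%, 92.0%, 92.2% and 89.7% in cocaine 1 to 4 and 100%, 92.5%, 92.7% and 90.6% in saline 1 to 4, and saline 1 was the highest. The means were 90.6% ± 1.76 and 94.0% ± 4.14 (adjusted p = 0.932).

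Junb, which encodes a weaker activator than Jun, had its tested run upstream, at -3469 to -3287 bases from the start (chr8:84982035-84982217, 7 CpGs). It read 56.6%, 55.1%, 50.6% and 58.5% in cocaine 1 to 4 and 47.8%, 48.4%, 49.9% and 56.8% in saline 1 to 4. Of the saline mice, 3 were below all cocaine mice and saline 4 was among them, at 55.2% ± 3.38 and 50.7% ± 4.16 (adjusted p = 0.923).

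Jund, the family member usually expressed without stimulation, was tested in 2 upstream runs. At -2692 to -2054 bases from the start (chr8:70695047-70695685, 21 CpGs) the levels were 33.7%, 40.3%, 33.0% and 45.9% in cocaine 1 to 4 and 39.8%, 49.5%, 39.9% and 40.7% in saline 1 to 4. Cocaine 1 and cocaine 3 were below all saline mice and the others overlapped, at 38.3% ± 6.07 and 42.5% ± 4.71 (adjusted p = 0.916). At -4034 to -3793 bases from the start the means were 75.2% ± 8.23 and 71.5% ± 4.51 (adjusted p = 0.943). Over its window Jund read 8.27% ± 2.19 and 9.24% ± 2.64 (adjusted p = 0.954).

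Whole windows of Fosl1, Jun, Junb and Fosb were under 5% and were not tested. Fosl1 read 1.34% ± 0.343 in cocaine and 1.26% ± 0.374 in saline mice, Jun 2.38% ± 0.574 and 2.45% ± 0.351, Junb 2.70% ± 0.425 and 2.68% ± 0.369, and Fosb 2.95% ± 0.716 and 2.76% ± 0.439. The groups overlapped in all 7 windows. Of 21743 windows tested, 3.94% had groups that did not overlap, a share so small that overlap at the 3 tested windows of the family is near this background. It is no measure for the untested windows, which are under 5%. Of the 21743 tested windows, 0 (0%) were called by the quasi-binomial F test with dispersion moderated by limma or by limma on logit levels. In the quasi-binomial test 1215 (5.59%) had an unadjusted p under 0.05. The 3 tested windows of the family, at Fos, Fosl2 and Jund, all had the lower mean in cocaine mice, as did 71.4% of all windows.

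Further sets of genes around AP-1 were summarised by their tested runs. Other basic leucine zipper partners (16 genes, 41 runs) had 2 runs lower and 0 higher at an unadjusted p under 0.05, and a median difference of -0.45 points. Atf4, a stress-response factor, had means of 4.31% ± 3.11 (cocaine) and 9.92% ± 2.06 (saline) in its run of smallest p, and Jdp2, a repressor of AP-1, read 45.7% ± 7.04 and 56.4% ± 6.17. Regulators upstream of Fos and Jun (31 genes, 106 runs) had 8 lower and 2 higher, and a median of -1.95 points. Among them Mef2c, an activity-dependent transcription factor, read 15.7% ± 7.59 and 31.4% ± 10.8, and Crtc3, a CREB coactivator, read 47.5% ± 4.22 and 57.4% ± 1.69. Map2k7, a kinase of the JNK pathway that phosphorylates Jun, read 17.9% ± 5.50 and 30.5% ± 7.88. Other immediate early transcription factors (13 genes, 29 runs) had 1 lower and 0 higher, in Klf6, which read 41.9% ± 9.16 and 58.3% ± 5.51. None of these runs passed over all runs (adjusted p = 0.876 for each named one), and over all runs 4.57% were lower and 1.08% higher at that threshold.

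At an unadjusted p under 0.05 in the quasi-binomial test, known AP-1 targets in neurons (14 genes, 59 runs) had 5 runs lower and 0 higher. The shares over all runs were 4.57% and 1.08%, and the median difference of the list was -1.43 points. The groups did not overlap in 5 of the 59 (8.47%, against 3.29% of all runs), close to the 4 of 44 (9.09%) of endothelial and mural markers and 6 of 89 (6.74%) of CA pyramidal cell markers. This list was drawn up with earlier results for some of its genes known. Cdk5r1, whose p35 product activates Cdk5, had levels of 3.36%, 4.20%, 1.73% and 3.27% in cocaine 1 to 4 and 8.11%, 8.42%, 6.68% and 12.4% in saline 1 to 4 (adjusted p = 0.876). Cdk5 itself read 19.4% ± 3.72 and 29.98% ± 3.88, and Camk2a, a synaptic kinase gene, 35.6% ± 3.76 and 45.4% ± 3.33 (adjusted p = 0.876 for both).

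Marker genes of the cell types the tissue could hold were counted in the same way, and none had a run that passed over all runs. At an unadjusted p under 0.05 in the quasi-binomial test, 4.57% of all runs were lower and 1.08% higher in cocaine mice. At that threshold, lower and higher runs numbered 2 and 0 of 28 for granule cell markers, 11 and 0 of 89 for CA pyramidal cell markers and 0 and 0 of 28 for interneuron markers. They numbered 3 and 0 of 32 for astrocyte, 3 and 0 of 42 for oligodendrocyte lineage, 3 and 0 of 23 for microglia and 4 and 1 of 44 for endothelial and mural cell markers. Start windows of CA markers ranged over 1.07% to 1.77% (cocaine) and 1.18% to 1.98% (saline), of interneuron markers 0.694% to 1.99% and 1.26% to 2.54%, and of endothelial and mural markers 0.542% to 2.86% and 1.35% to 2.15%. Microglia markers had no start window. Groups that did not overlap numbered 1 of 28 for interneuron and 1 of 32 for astrocyte markers and 0 for granule cell, oligodendrocyte lineage and microglia markers. Over all runs the share was 3.29%. The part of cell composition in the values at the Fos and Jun genes was not tested.

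Averaged over the 7 windows, the level was 5.74%, 5.48%, 4.93% and 6.18% in cocaine 1 to 4 and 5.56%, 6.90%, 6.60% and 5.45% in saline 1 to 4. The genes whose windows were closest to that mean over the 8 libraries, of 26017 others ranked by mean absolute difference, were Gm33562 (0.275 points away), Gm51673 (0.319) and Gm32099 (0.344).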

How the data were processed

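RRBS was measured in 8 libraries, 4 cocaine and 4 saline, grouped by sample title, with 4 mice in each per the design text. The submitters' processing notes name bcl2fastq, Bismark 22.1 and mm10. For trimming and duplicate removal, nothing was given in the sources used here. The deposited level is a fraction from 0 to 1, although the file headers name it a percent, and coverage was deposited as a read count, at least 10 per cytosine. Their product gave whole methylated reads at 100% of cytosines (tolerance 5e-07 per read of coverage).

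Levels of runs and windows are summed methylated reads over summed reads. Runs (gaps up to 100 bp, at least 3 CpGs), gene windows and start windows (1 kb either side, at least 5 cytosines) with a pooled level of 5% to 95% were tested by quasi-binomial regression on group, with dispersion moderated by limma 3.58.1 (R 4.3.3), an F test and Benjamini-Hochberg adjustment over all features. A call needed an adjusted p under 0.05 and 10 points for runs or 5 for windows and starts. P-values set the group difference against the spread between these mice. That spread is moderated toward a trend with coverage over all features and is never taken below that of read sampling alone. The fits were tested on simulated data. Gene spans, starts and promoters came from RefSeq tables of GRCm38.p6, which carry mm10 coordinates. The tables used give no exons, so runs were not placed in exons, introns or untranslated regions.

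Members and lists were chosen with earlier results of these data known. Values in all libraries are given for the run at or nearest each start, the tested run of smallest p per gene and any tested run at an unadjusted p under 0.05. The other Fos runs were added because they complete the gene. Up to 3 genes per list with the smallest run p could be named, and the 3 windows nearest the members' mean. Alternatives were own dispersion, limma on logit levels (0.5 reads added), a replicate block, 20 reads, no level filter, merged strands, 50 bp gaps, equal weights, no flank, leaving out each library, and leaving out saline 1 and cocaine 3.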

Additional observations from a re-analysis of the deposited data

Results flagged for a closer look

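In 14 of 74 groups of 4 libraries examined, 1 library lay farther from the other 3 than Dixon's 95% limit, where chance gives about 1 in 20. Many of the groups sit near 0%, where a few reads decide such a gap, and some windows share cytosines with the runs inside them.

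At gene starts, cocaine 2 read 0.532% at the Fosb run, where the other cocaine mice read 0.0890% to 0.105%, and 0.281% at the lower-coordinate Fosl1 run, where the others were at 0%. Saline 2 read 2.48% at that Fosl1 run, against 0% to 0.343%. Beyond the other end of Fosl1, saline 1 read 18.75% (45 of 240 observations), against 1.19% to 3.64%, and it read 2.39% in the start window there, against 0.375% to 0.577%. Cocaine 1 read 0.0228% at the Jun run, below 0.380% to 0.415%. At the Junb run cocaine 4 read 8.33% and saline 3 read 2.19%, with the rest of both groups at 0%. At the Jund run inside the gene cocaine 2 read 0.598% and saline 2 read 0.263%, again with the rest at 0%. In the Fos start window cocaine 1 read 0.0831%, with the other cocaine mice at 0%.

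In methylated DNA, saline 2 read 49.5% at the Jund run at -2692 to -2054 bases from the start, against 39.8% to 40.7% in the other saline mice. Cocaine 1 read 63.0% at the Jund run farther upstream, against 78.5% to 80.8%. Over the Fos window cocaine 1 read 10.9%, against 7.09% to 7.60%.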

How the results depend on the processing

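Of 145 comparisons of 9 named runs and windows with an alternative, 139 kept their direction and their side of the adjusted threshold. Part of that count was fixed in advance. Own dispersion, limma on logit levels, the replicate block and no level filter use the same levels, so the direction could not turn there. The other 6 were the Fosb run 2259 bases into the gene, whose difference of -0.189 points became 2.48 points with gaps of at most 50 bp, 1.86 points without saline 1 and cocaine 3, and -2.06 to 1.99 points without single libraries (1.99 without cocaine 1, 0.983 without cocaine 3, 0.686 without saline 1 and 0.289 without saline 2); the cause was not tested. At the Fos run at 1727 bases the difference was -14.2 points in every setting that kept all 8 libraries. Only leaving out libraries moved it. The run was lower in cocaine mice in 17 of 17 settings, with an unadjusted p from 0.00335 to 0.0613 and an adjusted p from 0.741 to 0.970. It was under 0.05 unadjusted in 14 of the 17, and not with its own dispersion, with limma on logit levels or without saline 4. The count of tested runs of the family at an unadjusted p under 0.05 was 1, and it became 0 with own dispersion and 0 with limma on logit levels. Without a filter on level it was 3 of 53 runs. A Jun run not tested before (chr4:95050454-95050556) and the already tested Fosl2 run at 4612 bases joined there. The count was 2 without saline 1 and cocaine 3, and 1 to 3 without single libraries. It was 2 without cocaine 2 or cocaine 3, when the Fosl2 run at 4612 bases joined, 2 without cocaine 4, when the Fos run at 1512 bases joined, and 3 without saline 4, when the Fos run at 1727 bases was lost and the Fos run at 1512 bases and the Fosl2 runs at 4612 and 16980 bases joined. Gene windows and gene starts had 0 calls under every alternative run. At an unadjusted p under 0.05 there were 2936 windows without cocaine 4, 799 without cocaine 1 and 1215 with all libraries. Starts without a filter on level gave 1146, from 17663 tested, against 267. With the replicate number as a block, the regions called over the genome went from 0 to 1, outside the family. The Fos run then had an unadjusted p of 0.00407 and an adjusted p of 0.803 in the quasi-binomial test, and the block changed no other call. Whether the numbers pair the mice cannot be told from these levels: same-numbered libraries correlated at -0.0169 to 0.0772, and 1 of 4 numbers matched best with itself. Uncalled differences of the gene windows also moved, over all alternatives from -4.20 to -1.14 points at Fos, -2.05 to -0.105 at Fosl2 and -2.01 to -0.0351 at Jund. Depth limits the Fos start run, where 0 of 70 to 207 observations per library leaves room for levels of up to 1.45% to 4.29%.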
